A study of Homo sapiens with 23 samples.

Results

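The replication-dependent histone genes encode the H1, H2A, H2B, H3 and H4 proteins that package newly copied DNA. They were taken here as the protein-coding genes named H2AC, H2BC, H3C or H4C with a number, together with H1-1 to H1-6, and 68 of the 60605 rows of the count table met this rule. GENCODE v44 lists 70 such genes, and H2AC18 and H2AC19 were not matched to a row. Nascent transcription was measured by PRO-seq, in which engaged RNA polymerases in permeabilized cells add labelled nucleotides so that reads mark transcription in progress. The cells were T47D, a luminal breast cancer line, of 1 clone (Clone 28) in which the endogenous TRPS1 protein carries a degron tag. TRPS1 is a GATA-type zinc-finger repressor, and some of its genomic copies in the clone were knocked out while the tagged protein is the form expressed. TRPS1 was degraded with dTAG-13 and dTAGV-1 (50 nM each, called dTAG) for 0.5, 1, 2, 4 or 24 h, and control cells received the vehicle DMSO. Each group had 4 replicates except 24 h, which had 3 (replicates 2, 3 and 4). All groups carry the tag, and no library from cells without it was used here.

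These genes are transcribed mainly in S phase, when the cell copies its DNA. Most have no intron, and their mRNA ends not in a poly(A) tail but in a short stem-loop that the stem-loop binding protein SLBP recognises. Transcription takes place in histone locus bodies, where NPAT, a substrate of cyclin E and CDK2, acts as coactivator. In an asynchronous culture, fewer cells in S phase and less transcription per cell cannot be told apart.

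The stem-loop was searched for in the 150 bases after each stop codon, because it marks the transcripts as replication-dependent. It was present in 67 of 68 genes, 22 to 62 bases after the stop codon (median 35), with a perfect stem in 65. H2AC11 and H2AC15 had 1 mismatch, and H2BC12L on chromosome 21 had no match. A perfect stem was present in 12 of 19882 other protein-coding genes (0.0604%). The others are not all non-histone genes: they take in histone genes outside the 68, such as H2AX and the unmatched H2AC18 and H2AC19. The 12 are not named here. The forms held by 4 or more genes were these, written as DNA with the loop in capitals.
Stem-loop of 38 genes: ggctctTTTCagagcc
Stem-loop of 9 genes: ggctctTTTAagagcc
Stem-loop of 10 genes: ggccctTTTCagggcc
Stem-loop of 4 genes: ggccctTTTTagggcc
All 15 H4 genes had the ggccct stem, and the H1, H2B and H3 genes in which a stem-loop was found had ggctct, as did 14 of 15 H2A genes.

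RefSeq promoter entries (GRCh38.p14, 250 bases before to 50 after the start) matched 62 of the 68 genes, 4 of them with 2 entries. TATAAA on the sense strand was present in 56.1% of these 66 entries, against 7.33% of all 35116 promoters. CCAAT on either strand, the letters bound by NF-Y, was present in 84.8% against 34.6%. It was present in every H1, H2A, H2B and H3 entry but in only 3 of 13 H4 entries. ATTTGCAT on either strand, the octamer bound by POU2F1, was present in 40.9% against 1.77%. It was found in 11 of 14 H2A entries, 15 of 20 H2B entries, 1 of 13 H3 entries and none of the H1 or H4 entries. The H3 match lies in 1 of the 2 entries of H3C4, which has the same coordinates as the H2AC7 entry, and the other H3C4 entry had none. The motifs were searched as letters only, do not overlap one another, and a match is not a binding site. The sequences printed are the 250 bases upstream of H3C2 and H1-2, called at 24 h with the replicate block and lower there without overlap, and of H4C5 and H2BC9, the most transcribed H4 and H2B genes per length. They read 5′ to 3′ towards the gene, with the TATAAA, the CCAAT (or its reverse complement) and the octamer (or its reverse complement) in capitals.
H3C2, chr6:26032100-26032349, minus strand: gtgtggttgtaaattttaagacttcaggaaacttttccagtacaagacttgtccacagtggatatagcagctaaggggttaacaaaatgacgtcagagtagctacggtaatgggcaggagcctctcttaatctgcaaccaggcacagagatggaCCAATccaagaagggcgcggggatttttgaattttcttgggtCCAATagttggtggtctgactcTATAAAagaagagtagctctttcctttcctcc
H1-2, chr6:26056471-26056720, minus strand: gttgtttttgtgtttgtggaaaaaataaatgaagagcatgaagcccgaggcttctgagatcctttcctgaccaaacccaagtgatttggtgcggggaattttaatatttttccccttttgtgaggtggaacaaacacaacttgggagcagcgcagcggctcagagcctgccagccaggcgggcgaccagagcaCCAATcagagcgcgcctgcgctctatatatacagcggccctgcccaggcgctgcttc
H4C5, chr6:26204360-26204609, plus strand: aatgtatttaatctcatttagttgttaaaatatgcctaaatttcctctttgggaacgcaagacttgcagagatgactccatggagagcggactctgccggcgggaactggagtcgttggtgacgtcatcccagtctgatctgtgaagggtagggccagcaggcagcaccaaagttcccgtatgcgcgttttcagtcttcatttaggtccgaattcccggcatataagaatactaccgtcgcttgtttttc
H2BC9, chr6:26251364-26251613, plus strand: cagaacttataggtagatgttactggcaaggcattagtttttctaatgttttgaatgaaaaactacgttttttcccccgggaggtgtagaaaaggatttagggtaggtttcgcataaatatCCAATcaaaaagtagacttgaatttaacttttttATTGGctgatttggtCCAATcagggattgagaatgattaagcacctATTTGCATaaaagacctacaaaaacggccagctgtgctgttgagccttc
H3C2 held 2 CCAAT matches and TATAAA, H2BC9 held 3 CCAAT matches and the octamer, H1-2 held 1 CCAAT match and H4C5 held none of the motifs.

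The 23 libraries held 4408544 to 17571616 gene counts (median 9768427). The histone genes took 0.405% to 0.554% of a library. Values are given as CPM, the count scaled by each library's TMM-adjusted size. The luminal markers ESR1, GATA3, FOXA1, KRT8, KRT18, KRT19 and SPDEF summed to 3938 to 4510 CPM, while KRT5, KRT14, VIM and ZEB1 summed to 3.61 to 6.04 CPM. Degradation acts on the TRPS1 protein, so its gene is no check of the labels. Its signal was 9171 ± 892 CPM (SD, n = 4) in DMSO and 11122 ± 1195 CPM (n = 3) at 24 h.

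The genes lie in 4 clusters, and 2 stand alone. On chromosome 6, 34 genes fill a distal block (6:25723397-26285638, hg38) and 21 a proximal block (6:27125897-27893891). On chromosome 1, 9 genes lie in the q21 cluster (1:149782689-149887965) and the pair H2AC25 and H2BC26 lies farther along (1:228434777-228463104). H4C16 is on chromosome 12 and H2BC12L on chromosome 21. The distal block gave 48.0% of the summed histone CPM, the proximal block 21.7% and the q21 cluster 25.7%. By family, H2B genes gave 28.0% of the sum, H4 26.6%, H2A 19.8%, H3 16.9% and linker H1 8.70%.

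Levels between genes were compared as CPM per kb of annotated gene span, averaged over the 23 libraries. They ranged from 0.0643 in H2AC1 to 454 in H2AC20, with a median of 59.7, and 26 of 68 genes were at or above 100. H2AC20 on chromosome 1 was the highest, followed by the H4 genes H4C5 (352) and H4C2 (338), the linker histone gene H1-2 (261) and H2BC9 (258). The highest H3 gene was H3C4, at 203 CPM per kb. Another annotated gene overlaps H3C4 and H2AC7 on the same strand. It had a mean of 2834 counts against 1051 in H3C4, so the level of H3C4 alone is uncertain. The span sets this scale: 51 genes span up to 2000 bases (median 102 CPM per kb), while 17 are annotated with longer transcripts of 2224 to 37610 bases (median 10.6). H2BC5, for example, had 266 CPM, more than any other gene, but 20.1 CPM per kb over its 13228 bases. Genes of low and high level were neighbours. In the proximal block H2BC11, H2AC11 and H4C9 stood at 0.217, 2.85 and 2.58 CPM per kb, and the next genes in order, H2BC12 and H2AC12, at 198 and 167. In the distal block H4C7 (1.25) and H3C8 (0.787) lay on either side of H3C7 (104) and H2BC9. The 6 genes H2AC1, H2BC1 and H1-1 at the distal end and H4C7, H3C8 and H4C13 never exceeded 10 counts in a library and did not pass the filter on low counts, so 62 genes were tested.

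**Figure D1:**
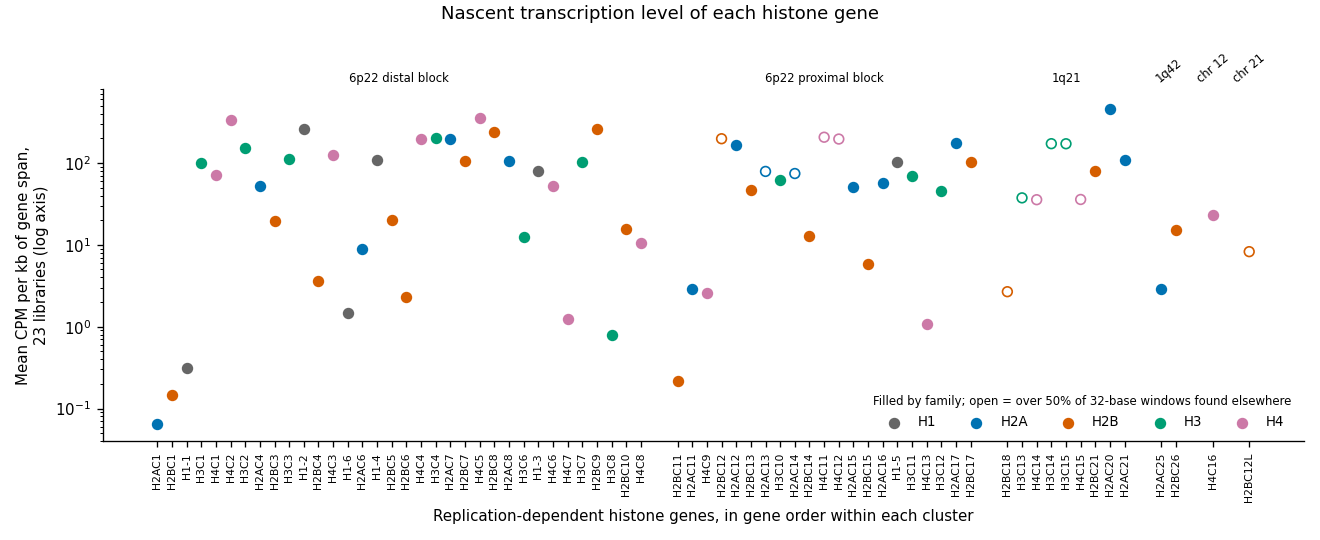
Mean CPM per kb of gene span over 23 libraries (log axis) for each of the 68 genes, in gene order within clusters, coloured by family. Open points mark the 12 genes with over 50% of their 32-base windows also found elsewhere in the genome. H2AC20 is highest at 454, and genes below 3 sit beside genes above 100.

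H2A and H2B genes often form divergent pairs that share the stretch between their starts, and 12 such pairs were found, with 169 to 250 bases between them. The levels of the partners were of the same order in most of the pairs of short genes. H2AC12 and H2BC12 had 167 and 198 CPM per kb, H2AC17 and H2BC17 had 176 and 102, and H2AC14 and H2BC14 had 74.4 and 12.7. Both genes of the pair H2AC1 and H2BC1 were near 0. The 235 bases between H2BC21 and H2AC20, the pair with the most transcribed gene of all, are printed because both genes read out from this stretch, with the same motifs in capitals (TATAAA on the plus strand only).
H2BC21 to H2AC20, chr1:149886683-149886917, hg38 plus strand: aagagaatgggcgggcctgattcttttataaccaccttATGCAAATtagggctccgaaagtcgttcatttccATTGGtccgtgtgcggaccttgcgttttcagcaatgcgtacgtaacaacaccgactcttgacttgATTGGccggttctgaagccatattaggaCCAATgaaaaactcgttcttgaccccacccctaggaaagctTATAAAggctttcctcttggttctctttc
It held 1 octamer, 3 CCAAT matches and, on the plus strand, 1 TATAAA near the H2AC20 start. TATAAA is also present on the minus strand, near the H2BC21 start, and is left in small letters. The promoter entry of H2BC21 likewise held TATAAA. H2BC21, annotated over 2224 bases, had 178 CPM and H2AC20, annotated over 494 bases, had 224 CPM.

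Several genes share their sequence with near-identical copies, and 12 of 68 had over 50% of their 32-base windows elsewhere in the genome. All windows of H4C14, H4C15, H3C14, H3C15 and H2BC12L were found elsewhere. H4C14 and H4C15 had nearly the same level, 253 and 255 CPM, with a ratio of 0.913 to 1.07 over the 23 libraries, and H3C14 and H3C15 had 89.9 and 89.0 CPM with a ratio of 0.932 to 1.12. How reads were divided between these copies is not given in the sources used here, so the value of each copy alone is uncertain. Of the 68 genes, 32 overlap an annotated gene, 2 of them (H2BC18 and H2BC12L) also among the 12 with repeated sequence, and strand use in the counting is likewise not given. H1-6, with 1.05 CPM, lies inside the annotated span of H2BC4 on the same strand. H3C12 and H2AC17 overlap each other on the same strand, with means of 1307 and 870 counts. How reads were divided between these 2 genes is not known, so the value of each alone is uncertain.

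Libraries stood apart by replicate number, which marks cells treated and collected together at a given time of 1 day. From DMSO to 4 h, the summed CPM of the 68 genes was 4879 to 5593 in replicate 1, 5192 to 5326 in replicate 2, 4415 to 4626 in replicate 3 and 4383 to 4572 in replicate 4. On this TMM scale no library of replicates 1 and 2 overlapped with one of replicates 3 and 4. The TMM factors of the replicate 1 libraries were 0.858 to 0.987, which raises their CPM. On total counts the separation was not complete, as the DMSO library of replicate 1 lay below the 1 h library of replicate 3. Median library totals differed too, at 7001408, 9173671, 13718241 and 12112166 counts for replicates 1 to 4, and the part of depth in the difference was not tested. The difference was tested among the 4 numbers with edgeR's quasi-likelihood test, with time in the fit, a test added after the sums were seen. It called 50 of 62 histone genes (80.6%) at an adjusted p-value (FDR, Benjamini-Hochberg) under 0.1, against 30.4% of all 25255 genes tested. The median histone gene lay 0.13 above its mean over the numbers in replicate 1 and 0.10 above it in replicate 2, on the log2 scale, and it lay 0.12 below in both replicates 3 and 4. The medians of all genes were within 0.01 of 0. By family the test called 4 of 5 H1, 13 of 14 H2A, 11 of 18 H2B, 10 of 12 H3 and 12 of 13 H4 genes. By place it called 40 of 49 genes on chromosome 6 and 9 of 11 on chromosome 1.

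The smallest FDR was that of H2AC25 (8.04e-09 by edgeR), with a mean of 83.2, 88.8, 51.7 and 49.4 CPM in replicates 1 to 4. The linker histone gene H1-3 had 77.1, 70.4, 53.0 and 52.8 CPM, and H3C2 had 103, 85.3, 68.1 and 69.8 CPM. H2AC20 had 233, 271, 203 and 199 CPM, with replicate 2 the highest, as in H2AC25. Among 20 genes of DNA synthesis (the MCM helicase, PCNA, ribonucleotide reductase and others), 10 were called, with medians of 0.01, 0.06, -0.03 and -0.04 in replicates 1 to 4. Of 12 S-phase control genes, 4 were called, and of 10 histone gene activators, 4 were called. A shift of the size seen in the histone genes was not present in the medians of these lists.

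**Figure D2:**
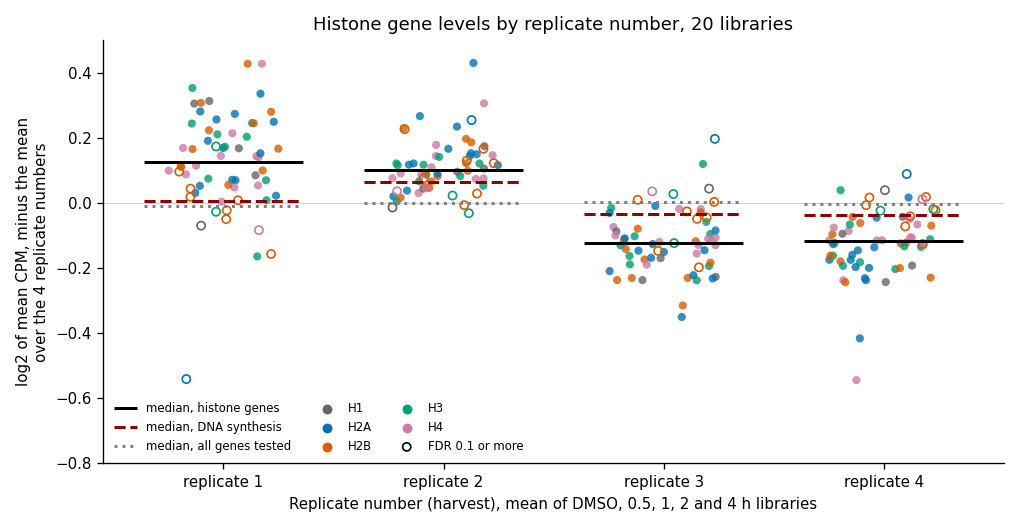
Deviation of each of 62 histone genes from its mean over the 4 replicate numbers (log2 of mean CPM over the DMSO to 4 h libraries), with family in colour and genes at FDR 0.1 or more open. The histone medians (solid) are 0.13, 0.10, -0.12 and -0.12, while the medians of the DNA synthesis genes (dashed) and of all genes (dotted) lie nearer to 0.

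From 0.5 to 4 h of TRPS1 depletion the summed level changed little beside the spread between replicates. The sum on chromosome 6 was 3328 ± 212 CPM in DMSO (SD, n = 4) and 3412 ± 378, 3441 ± 342, 3361 ± 281 and 3502 ± 376 CPM at 0.5, 1, 2 and 4 h. On chromosome 1 it was 1362 ± 130 CPM in DMSO and 1389 ± 177, 1426 ± 162, 1404 ± 135 and 1418 ± 161 CPM at these times. Against the DMSO library of the same number, the sum over all genes at 4 h was higher by 14.6%, 1.51%, 2.76% and 0.375% in replicates 1 to 4. On this TMM scale replicate 1 moved most, and its DMSO library was the lowest of its number. The TMM factor was 0.858 in its 4 h library, the lowest of all libraries, against 0.970 in its DMSO library. A smaller factor raises the CPM. On total counts the sum of the 68 genes averaged 4772 ± 368 CPM in DMSO and 4846 ± 384 CPM at 4 h (SD, n = 4). With TMM these values were 4764 ± 343 and 4996.5 ± 519 CPM. The changes by replicate number on total counts are not given here.

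No histone gene was called at any of these times by edgeR without the replicate number in the fit, against 0.476%, 1.25%, 0.733% and 0.833% of all 26057 genes at 0.5, 1, 2 and 4 h. The unadjusted p was under 0.05 for 2, 0, 0 and 1 of the 62 genes, and DESeq2 also called 0 at each time. The time-course test over the 20 libraries from DMSO to 4 h called 0 of 62 as well (0 with an unadjusted p under 0.05, and 0 by DESeq2), against 1.33% of 25255 genes. The median log2 fold change of the 62 genes was 0.02, 0.06, 0.02 and 0.06 at 0.5, 1, 2 and 4 h, and that of all genes was 0.01, 0.01, 0.00 and 0.01. At 4 h, 53 of 62 histone genes and 14255 of 26057 genes in all were higher than in DMSO. Without replicate 1 the medians at 1 and 4 h were both 0.02.

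Because the replicate numbers mark a shared harvest, the fit with the number as a block is given beside these results. With the block, 2 genes were called higher at 0.5 h (1.12% of all genes), 2 at 1 h (1.49%) and 2 at 4 h (1.55%). None was called at 2 h, where 2.43% of all genes were called in either direction and 3 histone genes had an unadjusted p under 0.05. The calls depend on single harvests: without replicate 3 none was called at 0.5, 1 or 4 h, and at 0.5 h none was called without replicate 1 or 2 either. At 0.5 h these were H2AC20 (log2 fold change 0.17 ± 0.04 SE, edgeR FDR 0.0614) and H3C6 (0.20 ± 0.05, FDR 0.0811). H2AC20 had 203, 251, 190 and 198 CPM in DMSO replicates 1 to 4 and 248, 293, 210 and 201 CPM at 0.5 h. It was higher in all 4 pairs, but the groups overlap. H3C6 had 34.4, 36.9, 42.7 and 37.9 CPM in DMSO and 41.6, 41.4, 48.0 and 43.7 CPM at 0.5 h, and was also higher in all 4 pairs.

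At 1 h the genes called with the block were H2BC26 (0.21 ± 0.04, edgeR FDR 0.0130) and H3C12 (0.16 ± 0.04, FDR 0.0508). The span of H3C12 overlaps that of H2AC17 on the same strand. At 4 h they were H2BC26 (0.19 ± 0.04, edgeR FDR 0.0201) and its divergent partner H2AC25 (0.23 ± 0.06, FDR 0.0678), the pair at 1:228434777-228463104. H2BC26 had 76.3, 85.2, 59.6 and 62.8 CPM in DMSO and 90.3, 94.3, 69.0 and 70.8 CPM at 4 h. H2AC25 had 71.2, 79.8, 46.3 and 50.6 CPM in DMSO and 89.2, 97.1, 55.2 and 52.0 CPM at 4 h. Both genes were higher at 4 h in all 4 pairs, while the groups overlap because replicates 1 and 2 are high in each. The block also called 2 genes over the time course, H2BC26 (edgeR FDR 0.0204) and H4C1 (FDR 0.0721), against 4.6% of all genes. With total counts in place of TMM, the block fit called 0 genes at 0.5 h, 4 h and over the time course and 1 at 1 h. H2AC20, H2BC26, H2AC25 and H4C1 were picked out here for their calls, after their values were seen.

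Of the genes with the smallest p-values without the block, none passed the FDR threshold by edgeR. H1-6, which encodes a testis linker histone, had the largest difference at 4 h (0.66 ± 0.28, FDR 0.566), from only 4 to 24 counts in a library. H2BC15 was 0.11 ± 0.05 higher at 0.5 h (edgeR FDR 0.595) and H2AC12 0.16 ± 0.11 (FDR 0.862). At 1 h H2BC10 differed by 0.27 ± 0.14 (FDR 0.606 by edgeR) and H2BC6 by -0.12 ± 0.06. H4C16 on chromosome 12 differed by 0.11 ± 0.06 at 2 h (edgeR FDR 0.813) and H2BC8 by 0.15 ± 0.08 at 4 h (FDR 0.738). Over the time course the smallest FDR of the 62 genes was 0.795, that of H3C11.

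**Figure D3:**
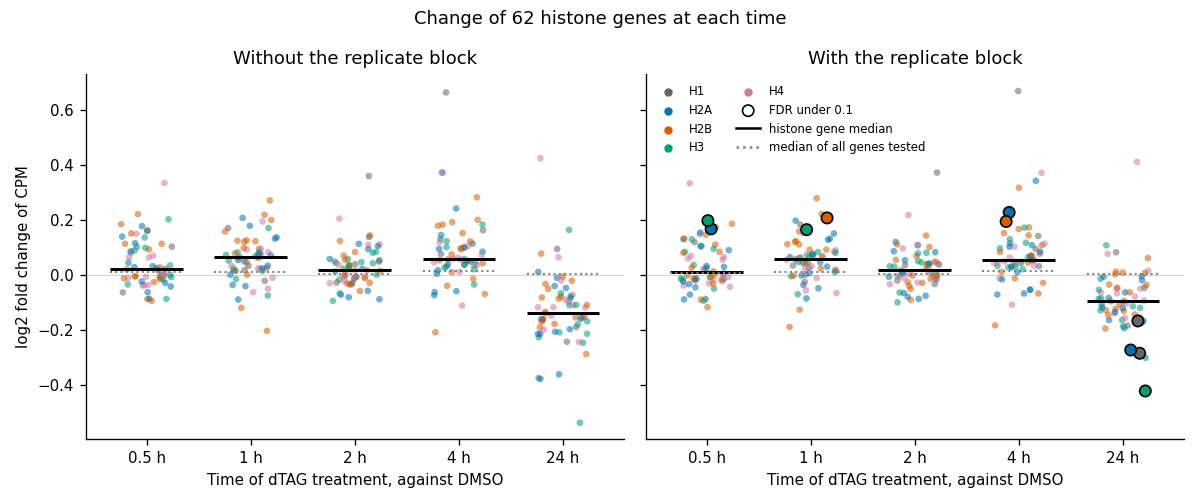
Log2 fold change of 62 histone genes against DMSO at each time, without (left) and with (right) the replicate block, coloured by family, with called genes ringed. The histone median (solid) lies at 0.02 to 0.06 from 0.5 to 4 h and at -0.14 at 24 h (-0.10 with the block), and the median of all genes (dotted) stays near 0.

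After 24 h the histone genes were lower as a group. The summed CPM on chromosome 6 was 3401, 2871 and 2796 in replicates 2, 3 and 4, each below the DMSO library of its number by 5.26%, 8.37% and 12.1% (3590, 3133 and 3182 CPM). On chromosome 1 it was 1443, 1180 and 1169 CPM, against 1526, 1226 and 1299 CPM in DMSO. The sum of the 24 h library of replicate 2 still lay above the DMSO libraries of replicates 3 and 4, so the groups overlap. The sums were 3023 ± 330 CPM (n = 3) against 3328 ± 212 CPM (n = 4) on chromosome 6 and 1264 ± 155 against 1362 ± 130 CPM on chromosome 1.

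The median log2 fold change of the 62 genes at 24 h was -0.14 (-0.10 with the block), against 0.00 for all genes. In the fit with no block, 56 of 62 were lower, against 12797 of 26057 genes in all. That fit sets 24 h, which has no replicate 1, against DMSO with it, and counts with the block follow by length. Without the block no histone gene was called by edgeR or DESeq2 (0.863% of all genes were called), although 5 had an unadjusted p under 0.05, all lower. In the same-numbered pairs, 32 of 62 were lower at 24 h in all 3, against 16.3% of all genes. The histone genes shift together by library, so this count rests on 3 pairs of libraries and not on 62 separate observations. The 3 genes H3C2, H2BC3 and H1-2 were lower in every 24 h library than in any DMSO library. With 3 of 62 this lies near the 4.27% of all genes with that pattern, so it does not set the histone genes apart. H2BC3 was separated narrowly, with at most 8.37 CPM at 24 h and at least 8.45 CPM in DMSO. The 24 h group has no replicate 1, so the medians by place, family and length are given with the block. They were -0.10 for the 49 genes on chromosome 6 (-0.15 without the block) and -0.07 for the 11 on chromosome 1 (-0.13 without). By family they were -0.17 for H1, -0.12 for H2A, -0.08 for H2B, -0.12 for H3 and -0.07 for H4. Genes of up to 2000 bases had a median of -0.11, with 41 of 46 lower, and longer genes a median of -0.05, with 11 of 16 lower. The differences between these sets were not tested. The 34 genes with no overlapping gene gave -0.10 and the 29 with under 10% of windows found elsewhere gave -0.12. H4C16 on chromosome 12 was not lower (0.06 ± 0.06, edgeR FDR 0.915).

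With the block, 4 histone genes were called at 24 h and all were lower, where 1.22% of all genes were called lower. H3C2, a core histone H3 gene of the distal block, fell by 0.42 ± 0.06 (edgeR FDR 0.000303). It had 99.1, 90.1, 69.6 and 77.3 CPM in DMSO and 69.1, 51.7 and 52.8 CPM in 24 h replicates 2 to 4. All 3 libraries at 24 h were below the 4 in DMSO.
The linker histone gene H1-2 had 192, 196, 188 and 193 CPM in DMSO and 184, 157 and 165 CPM at 24 h (-0.17 ± 0.04, edgeR FDR 0.0412), again without overlap. A second linker histone gene, H1-3, had 73.2, 66.4, 53.0 and 58.6 CPM in DMSO and 60.5, 45.2 and 39.5 CPM at 24 h (-0.29 ± 0.06, edgeR FDR 0.00784). Its groups overlap, and it was lower in all 3 pairs. H2AC14 had 42.1, 44.9, 29.3 and 31.3 CPM in DMSO and 32.2, 25.1 and 27.6 CPM at 24 h (-0.27 ± 0.08, edgeR FDR 0.0957), lower in all 3 pairs with overlapping groups, and 68.5% of its windows were found elsewhere. H2BC3, H1-3 and H2AC14 were named after their values were seen. With 1 replicate number left out, the block fit called 13 genes without replicate 1, 2 without replicate 2 and 1 without either replicate 3 or 4.

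Other abundant genes did not pass the threshold at 24 h. H2BC21 differed by -0.13 ± 0.05 (edgeR FDR 0.433, and 0.139 with the block), with 173, 185, 175 and 177 CPM in DMSO and 177, 151 and 157 CPM at 24 h. Its partner H2AC20 had 259, 191 and 177 CPM at 24 h (-0.01 ± 0.16, FDR 1.00 by edgeR). H4C5 had 149, 152, 129 and 133 CPM in DMSO and 154, 132 and 130 CPM at 24 h (-0.02 ± 0.09), H2BC9 differed by -0.15 ± 0.08 (FDR 0.716) and H3C4 by -0.11 ± 0.10 (FDR 0.899).

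**Figure D4:**
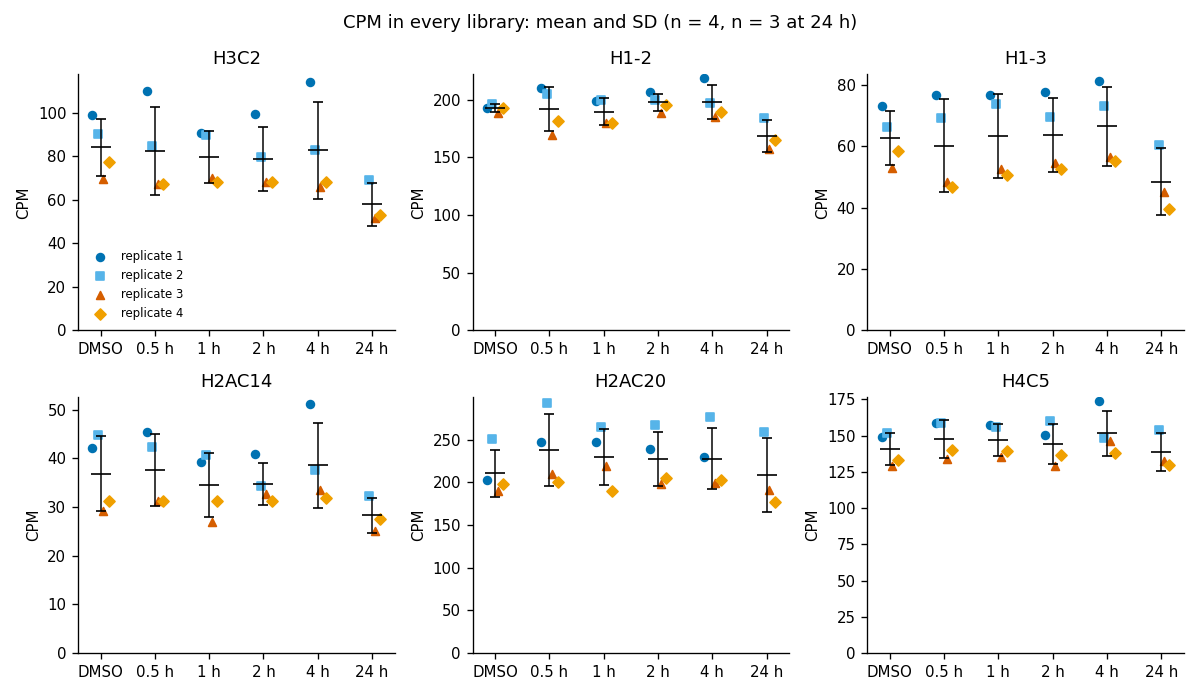
CPM of 6 histone genes in every library, with the replicate number by colour and shape and the mean and SD of each group (n = 4, n = 3 at 24 h). H3C2, H1-2, H1-3 and H2AC14 are lower at 24 h in all 3 pairs, and H2AC20 and H4C5 in 1 of 3. The 24 h and DMSO values overlap in H1-3, H2AC14, H2AC20 and H4C5, but not in H3C2 and H1-2.

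The 24 h libraries were also set against those of 4 h, a contrast that shares the 24 h libraries with the one above. Without the block edgeR called 0 of 62 (0.453% of all genes) and DESeq2 called 2, H2BC9 (DESeq2 FDR 0.0512) and H4C2 (FDR 0.0671), while 15 genes had an unadjusted p under 0.05 by edgeR, all lower. The median log2 difference was -0.21, against -0.01 for all genes, and 57 of 62 were lower. With the block 14 of 62 were called, all lower (-0.16 in the median), where 1.05% of all genes were called lower. They were H1-2, H1-3 and H1-5 of the linker histones, H2AC4, H2AC14 and H2AC25, H2BC4, H2BC7, H2BC8 and H2BC26, H3C2, H3C7 and H3C12, and H4C2. The largest differences among them were those of H3C2 (-0.37 ± 0.06, edgeR FDR 0.00246) and H1-3 (-0.35 ± 0.06, FDR 0.00196). H1-5 measured 107, 82.1, 78.4 and 82.6 CPM in the 4 h libraries and 75.0, 66.3 and 65.0 CPM after 24 h (-0.28 ± 0.06, edgeR FDR 0.0115), and its libraries did not overlap. In all, 11 of 62 histone genes did not overlap between the times and were lower at 24 h, against 3.66% of all genes, and 39 were lower in all 3 pairs, against 17.1%. These genes shift together by library, so the counts rest on few libraries. Without replicate 2 the block fit called 5 genes, without replicate 3 or 4 it called 2, and with total counts in place of TMM it called 6. Genes of this list other than H1-2, H2BC8, H3C2 and H3C12 were named for their calls, after their values were seen. The H1-2 difference was -0.20 ± 0.04 (edgeR FDR 0.0189).

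**Figure D5:**
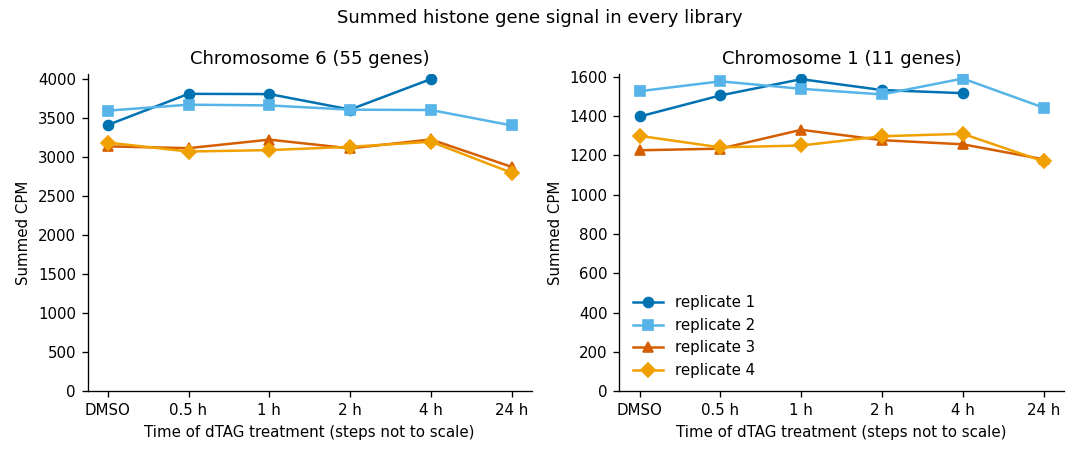
Summed CPM of the histone genes on chromosome 6 (left) and chromosome 1 (right) in every library, joined by replicate number. Replicates 1 and 2 lie above 3 and 4 at each time up to 4 h, and the 24 h libraries lie below the DMSO library of their number.

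The genes that act on histone transcription and mRNA were described from lists of known members. None of 10 activators, among them NPAT, HINFP (the H4 promoter factor), POU2F1, CASP8AP2 and the NF-Y subunits, was called at 24 h by edgeR, with or without the block, and their log2 fold changes ran from -0.09 (NPAT) to 0.06 (CREBBP) without it. In other comparisons the block did call activators. CASP8AP2 was called over the time course (edgeR FDR 0.0780, 4.6% of all genes). POU2F1 was called lower at 24 h against 4 h (-0.13 ± 0.04, edgeR FDR 0.0991, 1.05% of all genes). At 1 h 1 activator was called higher (1.49% of all genes), and CASP8AP2 had the highest value there (0.15). None of 21 genes of 3′ end processing, among them SLBP and the U7 snRNP proteins LSM10 and LSM11, was called at 24 h, with a range of -0.25 to 0.13. Of 12 S-phase control genes, 1 was called at 24 h without the block, CCNA2 (cyclin A2, -0.29 ± 0.07, edgeR FDR 0.0407). With the block 4 were called, all lower: CCNA2, CDC25A (-0.22 ± 0.04, edgeR FDR 0.00944), E2F1 (-0.27 ± 0.07, FDR 0.0416) and CHEK1 (-0.14 ± 0.04, FDR 0.0563). At 4 h the block called cyclin E2 (CCNE2) lower, at -0.20 ± 0.04 (edgeR FDR 0.0126), and the share of all genes called lower there is not given here. Over the time course CHEK1 was called without the block (edgeR FDR 0.0699), against 1.33% of all genes.

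All 20 DNA synthesis genes were lower at 24 h in the fold change, with a median of -0.12, but none was called without the block. With it 3 were called, all lower: RRM2, the small subunit of ribonucleotide reductase (-0.16 ± 0.04, edgeR FDR 0.0419), CDC45 (-0.18 ± 0.05, FDR 0.0792) and GINS1 (-0.18 ± 0.04, FDR 0.0220). At 0.5 h 18 of these 20 genes were higher (median 0.11), and at 4 h 17 were lower (median -0.07), where the histone median was 0.06. With the block 1 of the 20 was called higher at 0.5 h and 3 at 1 h, against 1.12% and 1.49% of all genes. At 4 h the block called MCM5 (-0.26 ± 0.06, edgeR FDR 0.0132) and GINS2 (-0.22 ± 0.06, FDR 0.0995) lower, and the share of all genes called lower there is not given here. The time course called 3 of them without the block, MCM2, MCM3 and MCM6, with 335 of 25255 genes called in all. Of 20 histone chaperone genes none was called at 24 h without the block, with a median of -0.06 and a range from -0.27 (SSRP1) to 0.06 (CABIN1), and MMS22L was called lower with it (-0.21 ± 0.05, edgeR FDR 0.0475). NASP, which binds H3 and H4, was called over the time course (edgeR FDR 0.0181). Of 12 replication-independent histone genes, which are transcribed outside S phase too, none was called at 24 h (median -0.05, with the highest value, 0.06, in H2AJ), and H2AZ1 was called higher at 4 h with the block (0.24 ± 0.06, edgeR FDR 0.0569). The DNA synthesis genes, MMS22L, NASP and H2AZ1 were named for their calls, after their values were seen.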

How the data were processed

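PRO-seq counts were analysed in 23 libraries. Per the study's methods and the submitters' processing notes, the authors trimmed adapters (cutadapt 1.8.1), collapsed duplicates by an 8-base molecular identifier and aligned reads with Bowtie2 2.4.4 (SAMtools 1.9, hg38). The deposited values are raw counts per Ensembl gene. The annotation, strand use and multiple-mapping filter of the counting are not given in the sources used here.

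Symbols and spans came from GENCODE v44, and 60463 of 60605 rows matched. Groups and replicate numbers came from the sample labels. Genes were kept by filterByExpr (minimum count 10, minimum total 15), which left 26057 genes for 23 libraries and 25255 for the 20 libraries of the time course. Kept genes held 99.5% to 99.6% of each library, and TMM factors ranged from 0.858 to 1.05. Counts were tested with edgeR 4.0.16 (quasi-likelihood, two-sided, R 4.3.3), with Benjamini-Hochberg adjustment over all kept genes and an FDR threshold of 0.1. Time-course fold changes are means over 4 time points. DESeq2 1.42.0 was an alternative. SE is the log2 fold change over the square root of F. The script was tested on simulated data. Library totals of 4408544 to 17571616 limit precision for genes of few counts.

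Replicates were treated and collected at different times within a day, per the labels, so a shared number pairs libraries by harvest. This was checked: deviations from group means correlated across genes at 0.313 for 55 same-numbered pairs of libraries and -0.0891 for 165 others. The deviations sum to 0 within a group, so the negative value is not separate evidence. By number the mean was 0.611, 0.111, 0.462 and 0.168 for replicates 1 to 4, so replicates 2 and 4 were weakly paired. The fit reported first has no replicate term, and the block is given where it changes a call of a histone gene. For the other gene lists not every call is given. Without the block, p-values are set against the spread between harvests of 1 clone. With the block, the differences between harvests are removed, and p-values are set against the spread that remains. The common dispersion was 0.0249 without the block and 0.00489 with it.

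The histone genes and the gene lists were chosen with earlier results of these data known. Genes named singly were the highest per kb in each family and on chromosome 1, the 3 of smallest p in each test without the block, and any gene of the activator, processing and S-phase control lists, with exceptions marked. Stem-loops allowed 1 mismatch in the stem. Repeated sequence was measured as 32-base windows found elsewhere in hg38. The lowest value among the replication-independent histone genes is not reported here.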

Additional observations from a re-analysis of the deposited data

Results flagged for a closer look

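Of 100 group checks for a lone library, 3 passed Dixon's critical value, and chance passes about 1 in 20. They were H2AC12 in DMSO replicate 2 (83.8 CPM, above the other DMSO libraries), H2AC12 in 1 h replicate 4 (72.2 CPM, below the others) and H3C12 in DMSO replicate 2 (134 CPM, above the others).

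The effects at 24 h and at 4 h differed, by the edgeR contrast of the times with the replicate block, for 14 histone genes, of which 4 are among those named by rule. For these 4 the differences were -0.37 for H3C2 (edgeR FDR 0.00246), -0.20 for H1-2 (FDR 0.0189), -0.19 for H2BC8 (FDR 0.0532) and -0.17 for H3C12 (FDR 0.0849), all lower at 24 h. None of the 4 was called in this contrast by edgeR without the block.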

How the results depend on the processing

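Without the block, the count of histone genes called was 0 in every comparison under each scaling, with no filter, with DESeq2 and with each replicate number left out, except that DESeq2 called 2 at 24 h against 4 h. The replicate block raised the count to 2 for 0.5 h, for 1 h, for 4 h and for the time course, to 4 for 24 h and to 14 for 24 h against 4 h. With the block and 1 replicate number left out, the count ran from 0 to 1 for 0.5 h, 0 to 2 for 1 h and for 4 h, 1 to 13 for 24 h, 2 to 17 for 24 h against 4 h (5 without replicate 2) and 0 to 1 for the time course. With the block and total counts in place of TMM, the count was 0 for 0.5 h, 4 h and the time course, 1 for 1 h and 6 for 24 h against 4 h. The cause was not tested. The median log2 fold change for 24 h lay between -0.19 and -0.10 under the alternatives tried. The time-course value of H3C11 ranged from -0.071 to 0.018 with a replicate left out, and changed sign (to 0.018) without replicate 2.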
